A study of Solanum tuberosum with 8 samples.

Results

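Cutting a potato tuber opens the storage tissue to the air, and the wounded cells change which transcripts they hold within hours. The genes described here had transcripts that were present in intact tubers and were much lower at every hour sampled after the cut. They are the 150 genes, of 42667 in the deposited table, whose level in tubers of the tetraploid cultivar X2 (Xingjia 2) was furthest below its starting value at 4, 12 and 24 h. The starting point was 9378 genes with a mean of at least 5 FPKM (fragments on a gene, scaled to its length and to the reads of the library) in X2 at 0 h. The 100 most abundant genes at 0 h and the genes in 3 of the study's own gene tables were left out. Those tables hold its pathway genes with the largest changes, its antioxidant and browning genes and its responsive transcription factors. The 8746 genes that remained were ranked by the smallest fall in log2(mean FPKM + 0.1) from 0 h to any later hour. The genes were therefore chosen by the X2 values of all 4 hours, and X2 values are given as a description, without a test.

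The tubers were cut across about a month after harvest and sampled at cutting (0 h) and 4, 12 and 24 h later, with no uncut tubers at the later hours. X2 had 11 libraries, 3 each at 0, 4 and 12 h and 2 at 24 h, each from pooled tubers. Tubers labelled D6, sampled at the same hours, had 10 libraries, 1 at 0 h and 3 at each later hour, and their cultivar is not described in the sources used here. Reads on genes numbered 29746314 to 44921591 in X2 and 24226307 to 35649617 in D6, so that 3 reads on a gene of 1 kb were worth 0.0668 to 0.124 FPKM. The single 0 h library of D6 correlated across genes with the 3 X2 libraries of 0 h at r = 0.954 to 0.96 on log2(FPKM + 1), and with the later D6 libraries at 0.861 to 0.889.

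A transcript level is set by how fast the RNA is made and how fast it is degraded, so a transcript can become scarce within hours once its synthesis stops. Potato tubers are storage organs rich in starch and in patatin, a storage glycoprotein. After wounding they build a closing layer of suberin, a polymer of phenolic and fatty compounds, at the cut face. FPKM is a share of the reads of a library, and in bulk tissue fewer cells with a transcript and less of it per cell cannot be told apart.

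The 150 genes took up 3.59% ± 0.0873 (SD, n = 3) of the reads on genes in X2 at 0 h. By 4 h it was 0.467% ± 0.0385 (n = 3), by 12 h 0.334% ± 0.0142 (n = 3) and by 24 h 0.388% ± 0.0515 (n = 2). In D6, which had no part in choosing the genes, it was 3.32% in the 0 h library, 0.437% ± 0.0966 at 4 h, 0.381% ± 0.135 at 12 h and 0.43% ± 0.0696 at 24 h (SD, n = 3 each). The highest later D6 library held 0.547%. The plot of read shares shows the 0 h libraries of both tubers far above all later ones.

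**Figure D1:**
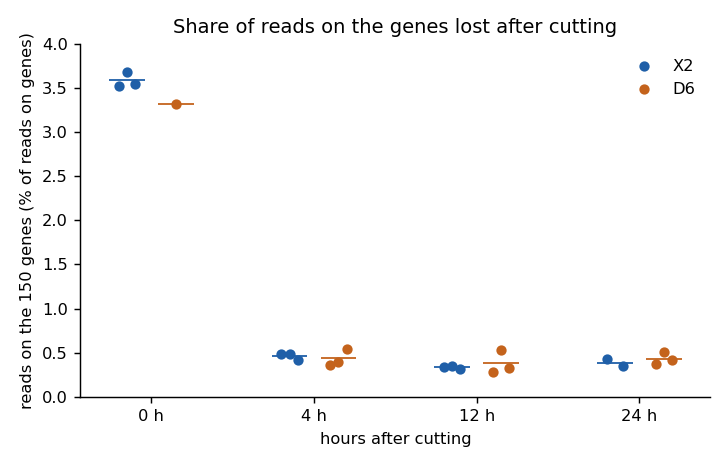
Share of the reads on genes (%) that fell on the 150 genes in each library, by hours after cutting, for X2 (blue) and D6 (orange), with short lines at the means. The 0 h libraries lie between 3.32% and 3.69% and no later library is above 0.547%.

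At 4 h, an X2 member kept a median of 12.7% of its 0 h mean (range 0.351% to 19.7%). At 12 h the median was 8.43% and at 24 h 10.9%, so the genes were low rather than absent at most hours. In X2, 21 of the 150 had means below 1 FPKM at every later hour, against 0 of the 8596 other ranked genes, a contrast that the rule favours. If a level had declined at a constant rate over the first 4 h, the X2 means would have halved every 29.4 to 102 min, with a median of 80.5 min. The lowest score of a member was 2.34 log2 units, so the rule largely sets the slow end of that range and the 19.7%. The lowest X2 mean fell at 12 h for 81 members, at 24 h for 38 and at 4 h for 31.

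In 148 of the 150 genes, every later X2 library lay below every 0 h library, which also held for 29.8% of the ranked genes. The rule used these libraries, so nothing is read from that count. The exceptions were PGSC0003DMG400041108 and PGSC0003DMG400029876. PGSC0003DMG400029876 had 7.92, 8.27 and 113 FPKM at 0 h, 4.03, 4.11 and 3.42 at 4 h, then 3.79, 8.27 and 2.83 at 12 h, then 3.4 and 4.49 at 24 h, so its place rests on 0 h replicate 3. It had 54.9 FPKM in the D6 library of 0 h and 7.26, 3.42 and 4.07 as later D6 means. PGSC0003DMG400017162, an undescribed member of rank 15, likewise rests on 0 h replicate 3, with 1.13, 1.17 and 14.4 FPKM at 0 h and later means of 0.0282, 0.331 and 0.041. D6 had 18.1 FPKM at 0 h and 0.46, 0.311 and 0.164 as later means. PGSC0003DMG400041108, PGSC0003DMG400029876 and PGSC0003DMG400017162 were the 3 members spread 10-fold or more over the X2 libraries of 0 h, a limit chosen after their values were seen. Without them, 126 of 131 members with a mean of at least 0.5 FPKM in D6 were at least 2-fold lower at every later hour there. Of all genes with that mean, which includes the 0 h library, 10% were.

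The members came from 113 genes with PGSC identifiers of the reference annotation and 37 genes predicted by the authors from their reads. Predicted genes made up 24.7% of the members and 16.2% of the other 8596 ranked genes. The members had a median length of 2001.5 bases, against 2306 for the other ranked genes. Their median X2 level at 0 h was 38.3 FPKM, against 14.1 for the other ranked genes. The 37 predicted genes lay on chromosomes 1 to 12, with 5 each on chromosomes 1 and 8, and 6 lay on the unplaced sequence numbered 0. Of the predicted members, 5 overlapped another predicted gene (Novel03362, Novel02105, Novel02555, Novel02103 and Novel02039), so the division of their reads is uncertain. Only 19 members carry a description in the sources used here, and 8 of those read as genes of unknown function. Descriptions came only from the study's lists of genes most changed after cutting, of browning and antioxidant genes and of primers. They therefore favour members with a large change in X2, and the described genes need not represent the group.

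D6 gave the same direction in most members. Among the 134 members with a mean of at least 0.5 FPKM over the D6 libraries, 130 were at least 2-fold lower (log2FC of -1 or lower) than the 0 h library at 4 h, 130 at 12 h and 130 at 24 h. At every later hour, 128 were. Of all genes with that mean, 19.7%, 18% and 16.2% were 2-fold lower at these hours, and 10% at every one. Of the 9378 genes with an X2 mean of 5 FPKM or more at 0 h, counted without that minimum, these shares were 24.5%, 23.3%, 22% and 14.2%. The D6 mean includes the 0 h library, so a member can pass the minimum only through its 0 h value, and the minimum favours members that fall. Counting all 150 members without a minimum, 143 were 2-fold lower at each single later hour and 141 at every one. With 1 library at 0 h, these counts carry no test.

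The median member log2FC for 4, 12 and 24 h in D6 was -2.81, -3.06 and -2.78, against -0.05, -0.02 and -0.07 for the genes with an X2 mean of 5 FPKM or more at 0 h. In X2 the member medians were -2.96, -3.52 and -3.15. Scaling by median-of-ratios size factors moved the median of those expressed genes to -0.32, -0.30 and -0.31 in D6 and lowered the member medians to -3.09, -3.33 and -3.01, so the members stayed lower relative to it. In X2 the same scaling moved the expressed genes to -0.47, -0.49 and -0.53 and the members to -3.49, -4.01 and -3.55. All later D6 libraries lay below the 0 h library in 143 members, and in 34.1% of the genes with an X2 mean of 5 FPKM or more at 0 h. The plot of time courses shows that both medians reached most of their drop by 4 h.

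**Figure D2:**
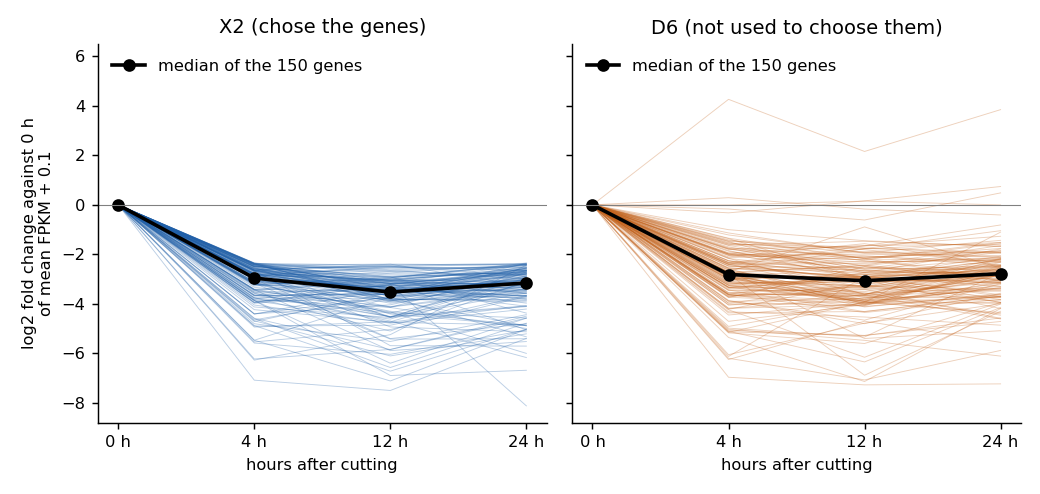
Change in level of each of the 150 genes against 0 h, as log2 of mean FPKM + 0.1, by hours after cutting, in X2 (left) and D6 (right). Thin lines are genes and the black line is their median, which was -2.96, -3.52 and -3.15 in X2 and -2.81, -3.06 and -2.78 in D6.

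The size of the drop varied between the tubers. Over the 150 members, X2 and D6 log2FC values correlated at r = 0.48 at 4 h, 0.45 at 12 h and 0.10 at 24 h. Each value is a difference from the tubers' own 0 h level, the X2 values are cut off by the rule, and genes are not independent replicates, so these are descriptions. The plot of smallest falls sets the tubers side by side.

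**Figure D3:**
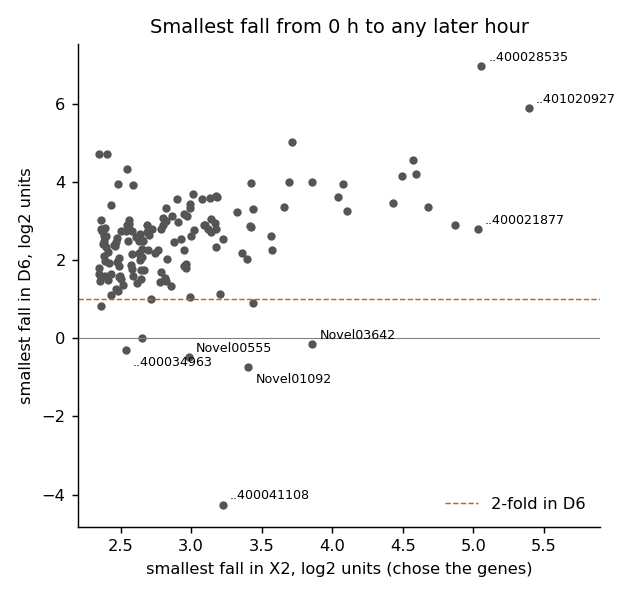
Smallest fall from 0 h to any later hour for each of the 150 genes, in log2 units of mean FPKM + 0.1, in X2 (x axis, which chose the genes) and D6 (y axis). Points below the dashed line were less than 2-fold lower in D6 at 1 or more hours, and the lowest point is PGSC0003DMG400041108 at -4.26. Labels give the end of the PGSC identifier.

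Among the 12 genes with the largest scores, 1 was described as a transcription factor and 1 as an F-box protein. The transcription factors listed by the study could not become members. The first in rank was PGSC0003DMG401020927, described as a putative bHLH transcription factor, a family of DNA-binding proteins that act as dimers. It had 29.7, 25.8 and 21.1 FPKM in the X2 libraries of 0 h. Later X2 values were 0.222, 0 and 0.0466 at 4 h, then 0.0168, 0.11 and 0 at 12 h, then 0.955 and 0.0644 at 24 h, where the highest, replicate 1 of 24 h, stood apart from replicate 3. D6 had 15.3 FPKM at 0 h and 0.156, 0.173 and 0 at 4 h, then 0.0436, 0 and 0 at 12 h, then 0.19, 0.251 and 0.0431 at 24 h. At 12 h no D6 library held more than 2 reads, which puts the level at least 218-fold lower than at 0 h.

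PGSC0003DMG400030688, described as F-box-containing protein 1, ranked eighth. F-box proteins choose the targets that a ubiquitin ligase marks for degradation. It was abundant in X2 at 0 h, at 189, 247 and 259.7 FPKM, and later values were 3.37, 3.75 and 1.91 at 4 h, then 5.7, 3.59 and 2.58 at 12 h, then 14.7 and 5.67 at 24 h. In D6 it had 135 FPKM at 0 h and 3.36, 0.967 and 7.17 at 4 h, then 0.871, 2.53 and 1.31 at 12 h, then 5.08, 10.5 and 7.08 at 24 h. The 24 h libraries of both tubers lay above their 4 h means but far below 0 h. In D6 it rose from 12 h to 24 h, with log2FC 2.26 (SE 0.39, limma adjusted p = 0.00405).

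PGSC0003DMG400004897, described as an auxin-repressed protein, belongs to a family named for transcripts that decline when auxin is given. It had 40.6, 68.6 and 46.8 FPKM in X2 at 0 h and 2.7, 1.43 and 0.903 at 4 h, then 0.621, 0.322 and 0.244 at 12 h, then 1.43 and 1.59 at 24 h. D6 started lower, at 7.49 FPKM, and had 1.1, 0.61 and 1.07 at 4 h, then 0.346, 0.512 and 0.295 at 12 h, then 0.522, 1.24 and 0.493 at 24 h. All later libraries lay below 0 h in both tubers, and no D6 comparison between later hours was called.

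One member is described as acting in the cell wall. PGSC0003DMG400021877, a xyloglucan endo-transglycosylase, belongs to a class of enzymes that cut and rejoin xyloglucan chains as walls grow. It had 134, 155 and 115 FPKM in X2 at 0 h and 3.49, 3.64 and 1.72 at 4 h, then 0.835, 0.924 and 0.871 at 12 h, then 3.09 and 4.96 at 24 h. D6 had 29.2 FPKM at 0 h and 0.73, 2.4 and 9.33 at 4 h, then 0.155, 0.189 and 0.102 at 12 h, then 1.49, 1.03 and 1.65 at 24 h. Both tubers had their lowest values at 12 h, and the D6 libraries of 4 h were spread more than 10-fold. In D6 it fell from 4 h to 12 h, with log2FC -3.45 (SE 0.78, limma adjusted p = 0.00693), and rose from 12 h to 24 h, with log2FC 2.58 (SE 0.31, limma adjusted p = 0.00116). The first call was lost without 12 h replicate 3 (log2FC -3.31), with a pseudocount of 1 (-1.78) and with limma-voom on recovered reads (-4.20).

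Descriptions of cytoskeletal or chromosomal proteins stood on 3 members. PGSC0003DMG400012631 is described as microtubule-associated protein futsch, a name from Drosophila. It had 25.1, 25.8 and 32.5 FPKM in X2 at 0 h and 2.59, 1.97 and 0.905 at 4 h, then 0.251, 0.255 and 0.19 at 12 h, then 0.665 and 1.48 at 24 h. D6 had 27.8 FPKM at 0 h and 1.07, 1.03 and 2.04 at 4 h, then 0.265, 0.346 and 0.265 at 12 h, then 0.784, 1.07 and 3.06 at 24 h. The 12 h libraries were the lowest in both tubers. In D6 it fell from 4 h to 12 h, with log2FC -1.86 (SE 0.34, limma adjusted p = 0.00252), a call lost with a pseudocount of 1 (-0.86), and rose from 12 h to 24 h, with log2FC 1.93 (SE 0.47, limma adjusted p = 0.0156).

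Novel01708, at chromosome 2, 47379296 to 47381670 on the minus strand, is described as titin-like, after a muscle protein of animals. X2 had 25.9, 25.2 and 28.3 FPKM at 0 h and 1.06, 1.01 and 0.937 at 4 h, then 0.368, 0.0535 and 0.118 at 12 h, then 0.542 and 1.19 at 24 h. D6 had 27.1 FPKM at 0 h and 0.478, 0.401 and 0.814 at 4 h, then 0, 0.0354 and 0.245 at 12 h, then 0.387, 1.19 and 2.6 at 24 h. In D6 it rose from 12 h to 24 h, with log2FC 2.83 (SE 0.71, limma adjusted p = 0.0178), and no library of 12 h reached those of 24 h. The call was lost without 12 h replicate 1 (log2FC 2.46), 12 h replicate 2 (2.68) or 24 h replicate 2 (2.78), with a pseudocount of 1 (1.03) and with limma-voom on recovered reads (4.65). Without 24 h replicate 3 the gene fell below the 0.5 FPKM minimum and was not tested. Novel02936, described as like condensin complex subunit 1, part of a complex that compacts chromosomes, had 8.42 FPKM in X2 at 0 h and 0.695 at 4 h. Its D6 values were 25.4 at 0 h and a mean of 3.46 at 4 h.

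Among the 19 described members, storage and metabolism were represented by single genes. How many members belong to either is not known, since 131 have no description. The most abundant genes of 0 h and the study's browning genes could not become members. PGSC0003DMG401017090 is described as patatin-3-Kuras 1. It had 21.8, 29.1 and 6.02 FPKM in X2 at 0 h and 0.445, 4.08 and 0.466 at 4 h, then 1.64, 0.674 and 0.241 at 12 h, then 0.191 and 0.206 at 24 h. D6 had 11.8 FPKM at 0 h and 2.44, 0.902 and 1.82 at 4 h, then 3.43, 15.2 and 0.287 at 12 h, then 0.627, 5.04 and 0.104 at 24 h. The D6 libraries of 12 h overlapped the 0 h value, since replicate 2 lay above it. Patatins are a multigene family, so the division of reads among copies is uncertain.

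Novel03642, at chromosome 9, 60037954 to 60039153 on the minus strand, is described as like cytochrome P450 71A1, of a large family of enzymes of secondary metabolism. X2 had 17, 21.7 and 18.9 FPKM at 0 h and 0.722, 1.79 and 1.19 at 4 h, then 0.104, 0.0849 and 0 at 12 h, then 0.111 and 0.0664 at 24 h. D6 had 0 at 0 h and in every later library but replicate 1 of 12 h, with 0.0337 FPKM from a single read. PGSC0003DMG400021056, a conserved gene of unknown function, also had no read in any D6 library, against 5.87, 8.02 and 6.35 FPKM in X2 at 0 h. These genes could not be compared in D6.

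Mobile elements gave 2 described members. PGSC0003DMG400017951, described as a non-LTR reverse transcriptase, an enzyme of retrotransposons, had 7.16, 6.28 and 8.48 FPKM in X2 at 0 h and 0.116, 0.0429 and 0.0203 at 4 h, then 0.146, 0.191 and 0.0403 at 12 h, then 0.458 and 0.487 at 24 h. D6 had 7.98 FPKM at 0 h and 0, 0 and 0.0661 at 4 h, then 0.209, 0.0845 and 0.292 at 12 h, then 0.35, 0.59 and 0.282 at 24 h. The levels and the order of the hours were alike in the tubers, lowest at 4 h and highest of the later hours at 24 h. PGSC0003DMG400041108 is described as an rRNA intron-encoded homing endonuclease, an enzyme of mobile introns. It had 53.5, 80.9 and 0.311 FPKM in X2 at 0 h and 1.16, 4.62 and 2.76 at 4 h, then 0.097, 13.9 and 0.2 at 12 h, then 0 and 0.124 at 24 h. In D6 it had 0.147 FPKM at 0 h and 0.27, 13.6 and 0.0731 at 4 h, then 0, 2.94 and 0.0691 at 12 h, then 2.32, 0.145 and 7.91 at 24 h. Its replicates were spread over more than 10-fold at 0 h and 12 h in X2 and at all later hours in D6, so no direction can be read from it.

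Genes described as of unknown function included the member with the largest fall in D6. PGSC0003DMG400028535, second in rank, had 10.5, 6.97 and 2.61 FPKM in X2 at 0 h and 0.054, 0.0149 and 0.0566 at 4 h, then 0.0102, 0 and 0 at 12 h, then 0.116 and 0.0913 at 24 h. In D6 it had 17.5 FPKM at 0 h and 0.0189, 0.105 and 0 at 4 h, then 0.0133, 0.0294 and 0 at 12 h, then 0, 0 and 0.0524 at 24 h. With at most 2 reads in any D6 library of 12 h, the level there was at least 412-fold lower than at 0 h. PGSC0003DMG400024428 had 15.2, 9.77 and 43.8 FPKM in X2 at 0 h, with replicate 3 well above the others, and 3.77, 1.05 and 0.68 at 4 h, then 0.392, 1.35 and 0.63 at 12 h, then 0.233 and 0.209 at 24 h. Its D6 values were 6.39 FPKM at 0 h and 1.88, 1.46 and 0.443 at 4 h, then 0.638, 0.472 and 0.513 at 12 h, then 1.24, 0.879 and 0.504 at 24 h.

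PGSC0003DMG400003243, also of unknown function, had the largest rise between later hours among the called members. It had 69.5, 80.4 and 96.5 FPKM in X2 at 0 h and 0.712, 1.25 and 0.936 at 4 h, then 2.02, 1.56 and 2.64 at 12 h, then 14.9 and 15.4 at 24 h. D6 had 44.3 FPKM at 0 h and 0.567, 0.272 and 3.3 at 4 h, then 1.47, 3.59 and 3.35 at 12 h, then 22.9, 25.1 and 13.9 at 24 h. Its 24 h libraries lay above all those of 4 h and 12 h in both tubers, and below those of 0 h. In D6 it rose from 4 h to 24 h, with log2FC 4.41 (SE 0.74, limma adjusted p = 0.00133), and from 12 h to 24 h, with log2FC 2.89 (SE 0.36, limma adjusted p = 0.0012).

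The other 3 described genes of unknown function in the first 12 ranks started low. PGSC0003DMG400028094 had 9.5, 9.52 and 12.2 FPKM in X2 at 0 h and means of 0.31, 0.0534 and 0.185 later, and 1.32 in the 0 h library of D6. PGSC0003DMG400012049 had 7.29, 7.43 and 7.64 FPKM in X2 at 0 h, later means of 0.171, 0.065 and 0.25, and 1.17 in D6 at 0 h. PGSC0003DMG400006071 had 4.37, 5.75 and 6.52 FPKM in X2 at 0 h, later means of 0.242, 0.106 and 0.206, and 2.61 in D6 at 0 h. Their later D6 means were at most 0.122 FPKM.

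The undescribed members in the first 12 ranks followed the same course. PGSC0003DMG400028505 had 33, 38.7 and 30.4 FPKM in X2 at 0 h and 1.21, 1.61 and 1.18 at 4 h, then 0.504, 0.34 and 0.639 at 12 h, then 1.59 and 1.08 at 24 h, and in D6 15 at 0 h and 0.386, 0.151 and 0.458 at 4 h, then 0.25, 0.139 and 0.479 at 12 h, then 0.776, 0.526 and 0.308 at 24 h. PGSC0003DMG400003649 had 17.3, 16.2 and 16.8 FPKM in X2 at 0 h and 1.27, 0.414 and 0.706 at 4 h, then 0.866, 0.575 and 0.156 at 12 h, then 1.34 and 0.458 at 24 h, and in D6 47.1 at 0 h and 0.559, 0.389 and 2.7 at 4 h, then 0.465, 1.28 and 0.886 at 12 h, then 1.9, 2.81 and 4.21 at 24 h. Novel03362, at chromosome 8, 47246710 to 47257162 on the minus strand, had 60.1, 68.8 and 77.2 FPKM in X2 at 0 h and 3.49, 3.97 and 4.08 at 4 h, then 2.88, 2.87 and 2.75 at 12 h, then 4.7 and 3.08 at 24 h, and in D6 41 at 0 h and 4.09, 3.65 and 4.84 at 4 h, then 2.89, 2.48 and 2.63 at 12 h, then 3.25, 4.22 and 4.03 at 24 h. No later library of either tuber reached its 0 h values in these 3 genes. From 12 h to 24 h in D6, PGSC0003DMG400003649 rose, with log2FC 1.68 (SE 0.39, limma adjusted p = 0.0133).

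Changes between the later hours were tested in D6, where neither the rule nor the 0 h library enters. A gene was called at a log2FC of at least 1 in either direction and an unadjusted limma p of at most 0.01. From 12 h to 24 h, 16 of the 125 members tested rose (12.8%) and 1 fell (0.8%). Of all 19819 genes tested, 6.53% rose and 4.04% fell, and of the 8653 ranked genes tested, 3.51% rose and 3.62% fell. The median member log2FC was 0.37, against -0.02 over all genes tested. Some members pass the minimum of 0.5 FPKM only through the hour where they are high. Without that minimum, 16 of the 148 members with reads rose and 2 fell, against 1594 and 849 of all 29186 genes with reads. Of the 8725 ranked genes with reads, 297 rose and 313 fell. Same-numbered libraries of these hours deviated together, although no source used here states a pairing. With a replicate block, 19 of the 125 members rose and 2 fell, against 1409 and 850 of all 19819 genes tested. The count of members that fell was 3 without 24 h replicate 3 and 0 without 24 h replicate 1.

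The D6 mean at 24 h was above that at 12 h in 98 of the 150 members (65.3%) and in 45.8% of the other ranked genes. In X2, whose later hours the rule used, it was higher in 105 members and in 38.1% of the other ranked genes. The 16 that rose include PGSC0003DMG400003243, PGSC0003DMG400021877, Novel01708, PGSC0003DMG400030688 and PGSC0003DMG400012631, described above, and PGSC0003DMG400018104. PGSC0003DMG400018104 had 101 FPKM in D6 at 0 h and 4.58, 1.52 and 5.26 at 4 h, then 5.84, 7.28 and 5.09 at 12 h, then 15.8, 21.7 and 14.4 at 24 h, and rose from 12 h to 24 h with log2FC 1.49 (SE 0.19, limma adjusted p = 0.00134). In X2 it had 99.98, 116 and 101 FPKM at 0 h and 4.83, 3.93 and 3.05 at 4 h, then 9.81, 9.32 and 7.72 at 12 h, then 17.3 and 10.3 at 24 h.

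The member that fell was PGSC0003DMG401025958. D6 had 180.4 FPKM at 0 h and 15.8, 11.7 and 13.6 at 4 h, then 20.6, 15.1 and 14.9 at 12 h, then 5.49, 8.34 and 8.47 at 24 h, with log2FC -1.18 (SE 0.20, limma adjusted p = 0.00393). Without 24 h replicate 1 its log2FC was -0.98, short of the call. X2 had 253, 273 and 259 FPKM at 0 h and 46.3, 52 and 46.9 at 4 h, then 34.9, 37.1 and 32.2 at 12 h, then 16.1 and 9 at 24 h, with 24 h again the lowest hour.

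**Figure D4:**
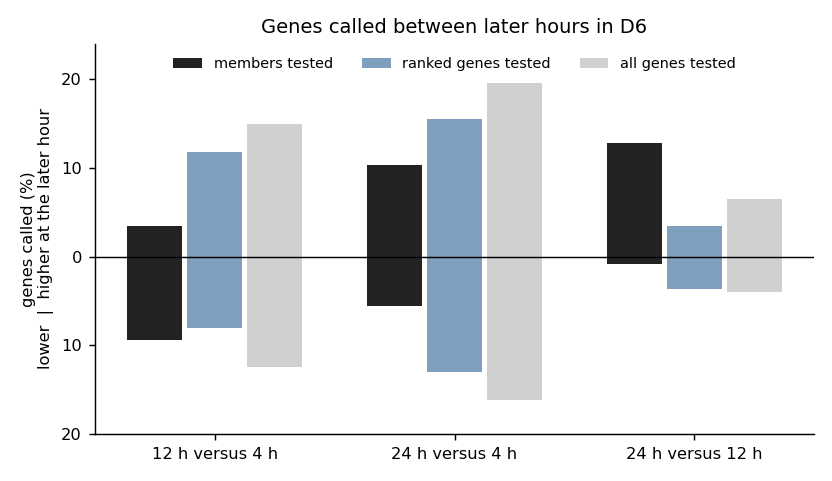
Percentage of genes called between later hours in D6, higher (above 0) or lower (below 0) at the later hour, for the members tested, the ranked genes tested (members included) and all genes tested. From 12 h to 24 h, 12.8% of the members rose and 0.8% fell, against 6.53% and 4.04% of all genes tested.

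From 4 h to 12 h in D6, 4 of 117 members tested rose (3.42%) and 11 fell (9.40%). Of all 19710 genes tested, 15.0% rose and 12.5% fell. The member share that fell was thus below that of all genes tested and close to the 8.01% of the ranked genes. The member share that rose was also below the 11.8% of the ranked genes. With a pseudocount of 1, 7 members fell. The 4 that rose were Novel03376, PGSC0003DMG400000735, PGSC0003DMG400011999 and PGSC0003DMG400000618, the last named after its values were seen.

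Novel03376, at chromosome 8, 52349500 to 52350774 on the minus strand, was the member with the largest rise from 4 h to 12 h. It had 15.6 FPKM in D6 at 0 h and 0, 0.217 and 0.158 at 4 h, then 1.83, 2.46 and 1.74 at 12 h, then 1.75, 0.942 and 2.27 at 24 h. It rose to 12 h with log2FC 3.37 (SE 0.47, limma adjusted p = 0.000704) and stood above 4 h at 24 h as well, with log2FC 3.04 (SE 0.52, limma adjusted p = 0.0015). In X2 it had 14.8, 11.9 and 12.4 FPKM at 0 h and 0.418, 0.77 and 0.379 at 4 h, then 0.757, 0.94 and 0.984 at 12 h, then 1.68 and 1.18 at 24 h, with 4 h again the lowest hour.

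PGSC0003DMG400000735 differed in level between the tubers after the cut. It had 179, 125 and 99.4 FPKM in X2 at 0 h and 31.9, 26.9 and 20.3 at 4 h, then 19.6, 21.1 and 17.7 at 12 h, then 16.3 and 22.5 at 24 h. D6 started higher, at 273 FPKM, and had 2.11, 3.6 and 4.79 at 4 h, then 7.08, 11.2 and 13 at 12 h, then 4.31, 3.28 and 9.58 at 24 h, below every later X2 library. In D6 it rose from 4 h to 12 h, with log2FC 1.58 (SE 0.33, limma adjusted p = 0.00469). PGSC0003DMG400011999 had 1.74, 1.88 and 2.38 FPKM in D6 at 4 h and 4.76, 4.79 and 5.1 at 12 h, with log2FC 1.26 (SE 0.17, limma adjusted p = 0.000595), and 27.9 at 0 h. With a pseudocount of 1 that rise was 0.98 on the log2 scale, short of the call.

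PGSC0003DMG400032243 was among the 11 that fell from 4 h to 12 h. D6 had 74 FPKM at 0 h and 10.2, 11.6 and 13.3 at 4 h, then 0.737, 2.66 and 1.58 at 12 h, then 0.993, 2.5 and 2.78 at 24 h, with log2FC -2.90 (SE 0.39, limma adjusted p = 0.000612) for 12 h and log2FC -2.54 (SE 0.36, limma adjusted p = 0.000533) for 24 h, both against 4 h. In X2 it had 43.9, 36.9 and 33.5 FPKM at 0 h and 6.99, 6.47 and 4.64 at 4 h, then 5.6, 4.48 and 2.38 at 12 h, then 1.66 and 0.455 at 24 h. Its decline thus went on past 4 h in both tubers, with the lowest X2 libraries at 24 h.

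**Figure D5:**
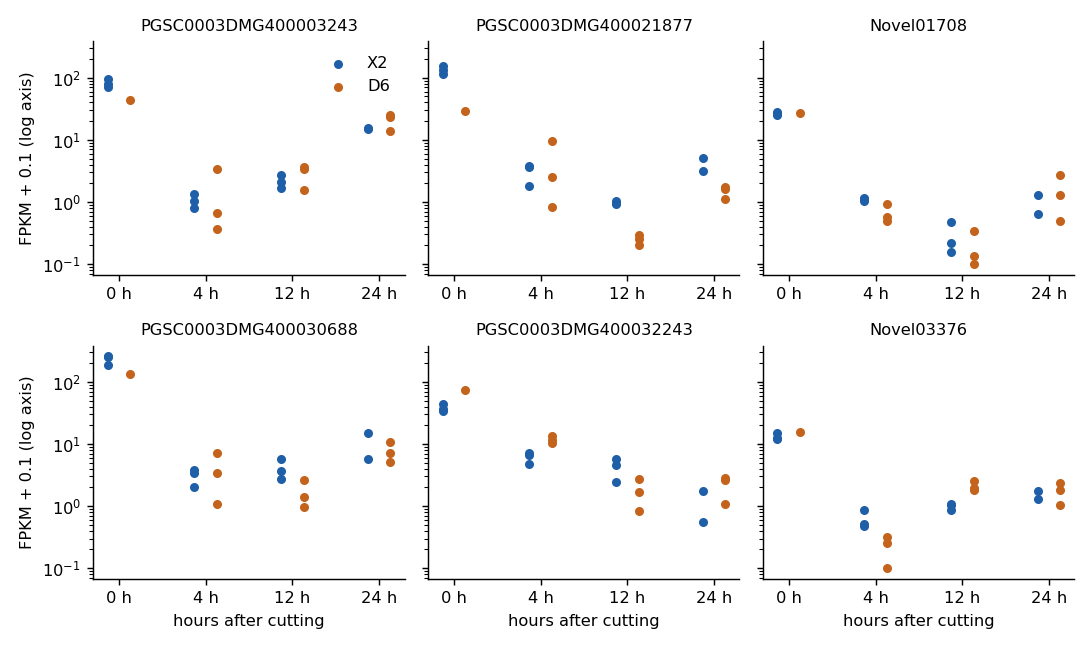
FPKM + 0.1 (log axis) in every library by hours after cutting, in X2 (blue) and D6 (orange), for 6 members called between later hours in D6. The 3 genes of the upper row and PGSC0003DMG400030688 were higher at 24 h than at 12 h in D6, PGSC0003DMG400032243 was lower at 12 h and 24 h than at 4 h, and Novel03376 was higher.

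From 4 h to 24 h in D6, 13 of 125 members tested rose (10.4%) and 7 fell (5.6%). Of all 20143 genes tested, 19.6% rose and 16.2% fell, so the member shares were the smaller ones in both directions. The count that rose was 8 with a pseudocount of 1 and 8 without 4 h replicate 1. PGSC0003DMG400018104 rose, with log2FC 2.32 (SE 0.44, limma adjusted p = 0.00231). PGSC0003DMG400002995 had 63.3 FPKM in D6 at 0 h and 20.6, 24.2 and 23 at 4 h, then 7.56, 8.01 and 7.62 at 12 h, then 7, 7.72 and 7.64 at 24 h, and fell with log2FC -1.59 (SE 0.10, limma adjusted p = 2.11e-05). PGSC0003DMG400023146 had 86.8 FPKM in D6 at 0 h and 28.5, 27.5 and 30.3 at 4 h, then 18.4, 18.2 and 21.4 at 12 h, then 9.93, 8.71 and 12.4 at 24 h, and fell with log2FC -1.48 (SE 0.14, limma adjusted p = 7.41e-05). In X2, PGSC0003DMG400002995 had 103, 107 and 121 FPKM at 0 h and 22, 20.3 and 19.9 at 4 h, then 8.25, 7.68 and 9.24 at 12 h, then 11 and 7.43 at 24 h, and PGSC0003DMG400023146 had 311, 302 and 295 at 0 h and 51.4, 52.9 and 46.2 at 4 h, then 26.9, 30.05 and 29.5 at 12 h, then 19.2 and 16 at 24 h. Both genes stepped down again after 4 h in both tubers.

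In 9 members, D6 was less than 2-fold lower than at 0 h at 1 or more later hours. Of these, 6 had less than 5 FPKM in the 0 h library of D6. They were PGSC0003DMG400041108, Novel03642 and PGSC0003DMG400021056, given above, with Novel01092, Novel00555 and PGSC0003DMG400034963. Novel01092, at chromosome 11, 25815130 to 25836469 on the minus strand, had 6.46, 7.31 and 6.61 FPKM in X2 at 0 h and 0.399, 0.523 and 0.572 at 4 h, then 0.539, 0.7 and 0.415 at 12 h, then 0.53 and 0.487 at 24 h. D6 had 0.445 FPKM at 0 h and 0.294, 0.464 and 0.251 at 4 h, then 0.392, 0.584 and 0.554 at 12 h, then 0.989, 0.877 and 0.57 at 24 h. Novel00555, at chromosome 1, 63790161 to 63794313 on the minus strand, had 9.59, 12.8 and 12.6 FPKM in X2 at 0 h and 0.679, 0.256 and 0.178 at 4 h, then 0.897, 0.838 and 0.722 at 12 h, then 1.58 and 1.21 at 24 h. In both predicted genes, the D6 libraries of all hours lay near the later X2 libraries in level. Novel00555 had 0.459 FPKM in D6 at 0 h and 0.259, 0.341 and 0.597 at 4 h, then 0.197, 0.437 and 0.166 at 12 h, then 0.47, 0.696 and 0.882 at 24 h.

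PGSC0003DMG400034963 had 29.1, 29.8 and 9.84 FPKM in X2 at 0 h and 3.29, 3.64 and 2.64 at 4 h, then 2.75, 4.61 and 4.19 at 12 h, then 3.51 and 4.24 at 24 h. D6 had 3.05 FPKM at 0 h and 4.07, 2.81 and 4.37 at 4 h, then 1.94, 4.16 and 2.01 at 12 h, then 2.35, 2.88 and 1.6 at 24 h, so D6 lay near the later X2 level at every hour. The remaining 3 were the patatin gene above, PGSC0003DMG400013305 and PGSC0003DMG401031520, the last pair named after their values were seen. PGSC0003DMG400013305 had 12 FPKM in D6 at 0 h and 7.01, 5.52 and 5.31 at 4 h, then 3.89, 4.36 and 4.78 at 12 h, then 3.66, 4.06 and 3.3 at 24 h, so it was lower at every later hour and missed 2-fold only at 4 h. PGSC0003DMG401031520 had 9.72 FPKM in D6 at 0 h and 1.49, 1.84 and 1.97 at 4 h, then 1.76, 3.38 and 3.94 at 12 h, then 5.51, 5.6 and 5.4 at 24 h, a drop at 4 h followed by a partial return by 24 h.

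Levels at 0 h differed between the tubers for a minority of the members. The 0 h library of D6 was above the X2 mean in 44 members, at least 4-fold below it in 20 and at least 4-fold above it in 4. Of the 20 with a low start in D6, 9 were predicted genes, and 14 were still 2-fold lower at every later hour. The rule used the X2 values of 0 h, and the same counts were not made over other genes. Nothing particular to the members is read from them. The following genes were picked for their difference at 0 h, after the values were seen. PGSC0003DMG400029247 had 22.3, 11.3 and 8.11 FPKM in X2 at 0 h and 296 in D6. PGSC0003DMG400014104 had 259.9, 139.9 and 97.8 in X2 and 1358 in D6. PGSC0003DMG402017090 had 244, 134 and 101 in X2 and 1062 in D6, and PGSC0003DMG400008749 had 519, 351 and 226 in X2 and 1539.8 in D6. None of these 4 carries a description here.

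The 4 genes moved together over the later D6 libraries. Their D6 values at 12 h show the pattern. PGSC0003DMG400014104 had 30.7, 452 and 65.5 FPKM in replicates 1 to 3, PGSC0003DMG402017090 had 19.7, 357 and 39.2, PGSC0003DMG400008749 had 26.2, 397 and 68.6 and PGSC0003DMG400029247 had 6.84, 94.3 and 10.7. Replicate 2 was the highest in each. Over the 9 later D6 libraries each of the 4 correlated at r = 0.97 or more with their mean on the log2 scale, which includes the gene itself. No other member reached r = 0.9, and 1 of 8578 other ranked genes did. The mean does not include those genes, so their r values are not like those of the 4. In X2 at 0 h, replicate 1 was the highest and replicate 3 the lowest for each of the 4. Whether they share reads as near-identical copies cannot be told from these files.

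These genes weighed on the D6 read share. They held 39.4% of the reads on members in replicate 2 of 12 h in D6, and 3.05% to 19.5% in the other later D6 libraries. Without them, the remaining 146 members took 2.62% of the reads in the 0 h library of D6 and 0.265% to 0.440% in the later ones. The drop of the group was thus present without the 4 genes.

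Few defining markers of tissues could be checked, and 7 genes matched. Descriptions came only from the study's lists of genes most changed after cutting, of browning and antioxidant genes and of primers. A marker that changed little could thus seldom match, so that the matched genes changed is no result about tissues. Of 3 storage genes, patatin-3-Kuras 1 is a member. Proteinase inhibitor type-2 CEVI57, PGSC0003DMG400004548, had means of 1.13, 0.369, 0.0158 and 0.161 FPKM in X2 from 0 h to 24 h and at most 0.0343 in D6. Proteinase inhibitor IIa, PGSC0003DMG400030593, had 0.0185, 2.02, 0.7 and 0.669 in X2 and 0.0652, 14.8, 10.03 and 6.93 in D6. The single green tissue gene, chlorophyll a/b-binding PGSC0003DMG400007375, had 0.0452, 0.272, 0.981 and 5.43 in X2 and 0.271, 0.8, 4.52 and 13.8 in D6. Phloem protein 2, PGSC0003DMG400010357, had 0.187, 22.8, 2.17 and 0.569 in X2 and 0.0273, 19.2, 0.201 and 0.234 in D6, so it was highest at 4 h. The 2 suberization-associated anionic peroxidases took different courses. PGSC0003DMG400022341 was highest at 4 h, with 0.578, 12.8, 3.71 and 1.23 in X2 and 3.08, 115, 30.9 and 5.65 in D6. PGSC0003DMG400022342 was highest at 24 h, with 0.963, 2.65, 9.15 and 62.8 in X2 and 1.32, 3.07, 7.24 and 31.8 in D6. Apart from patatin-3-Kuras 1 and CEVI57, the 5 genes had later means above 0 h in X2 while the members were low, and their part in the members' result was not tested.

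The edge of the group was narrow. The last 2 members were Novel00725, at chromosome 10, 47694058 to 47698647 on the plus strand, with a score of 2.35, and PGSC0003DMG400030186, with 2.34. The next genes, PGSC0003DMG400009024 and PGSC0003DMG401025662, scored 2.34 and 2.34. PGSC0003DMG400030186 had 220.3, 182 and 219 FPKM in X2 at 0 h and 39.4, 40.4 and 42.3 at 4 h, then 19.3, 20.4 and 18.1 at 12 h, then 16.7 and 14.8 at 24 h, and Novel00725 had 5.9, 5.42 and 4.17 at 0 h and 0.763, 1.1 and 0.799 at 4 h, then 0.851, 0.573 and 0.31 at 12 h, then 0.713 and 1.15 at 24 h. PGSC0003DMG400009024, just outside, had 98.6, 99.1 and 99.6 FPKM at 0 h and 17.1, 19.6 and 17 at 4 h, then 20.1, 19.7 and 18.5 at 12 h, then 19.2 and 13.6 at 24 h. PGSC0003DMG401025662 had 58.4, 70.2 and 73.9 at 0 h and 13.7, 13 and 13.1 at 4 h, then 8.11, 7.13 and 6.91 at 12 h, then 7.04 and 6.39 at 24 h. The scores on either side of the limit were close, so the number 150 marks no gap in them, while the courses after 4 h differed among the 4 genes.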

How the data were processed

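RNA-Seq was done on cut tubers labelled X2 and D6. The authors trimmed the reads, mapped them with HISAT to SolTub_3.0, used featureCounts for counting, and deposited the result as FPKM. The submitters' processing notes name CASAVA 1.8, Bowtie 0.12.2 and a mouse build instead, which does not match the potato identifiers. The columns of a sample served as its replicates, described as biological by the study. 1 column of values, a second one under the name of X2 replicate 2 at 4 h, was not used. Whether it holds X2 replicate 2 of 24 h, which no column used here has, was not established. The unnormalised reads were recovered from the steps between FPKM values, and they gave the read shares and the floor of 3 reads.

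Fold changes are on log2(FPKM + 0.1), which understates the change of low genes. D6 hours were compared pairwise with limma 3.58.1 in R 4.3.3 (eBayes with trend), over genes with a mean of at least 0.5 FPKM, with Benjamini-Hochberg adjustment over all genes tested. Simulated data took their spread from the D6 libraries of 4 h in every run, so calling at the spread of 12 h and 24 h was not measured. Of the genes changed 4-fold, 192 of 198 were called in the run for 12 h versus 4 h. In those for 24 h versus 4 h and 24 h versus 12 h, 188 of 200 and 185 of 200 were. In the same order, 54, 45 and 43 unchanged genes were called, with 19359, 19324 and 19335 genes tested in all. Ranks, shares and figures were made in Python 3.11.15 (pandas 2.3.3, numpy 2.4.6, matplotlib 3.10.9).

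The members, lists and tests were chosen with earlier results of these data known. Named genes were the 12 members with the largest scores, the 2 most abundant in each described group of at least 2 members, the 5 with the smallest D6 fall, up to 3 per direction in each D6 test with no overlap between libraries, and those at the edge. Same-numbered D6 libraries of 12 h and 24 h deviated together (r = 0.208, 0.279 and 0.113). For those of 4 h, r was 0.272, 0.0325 and 0.106 with 12 h, and 0.176, -0.0769 and -0.0289 with 24 h. Alternatives were other pseudocounts, size factors, no minimum, an adjusted p, 1 fit over the later D6 libraries, a replicate block, left-out replicates and, chosen after seeing the data, limma-voom on recovered reads, single X2 libraries left out and 2 sets of members left out, those scoring below 1 without 1 X2 library of 0 h and those spread 10-fold or more over the X2 libraries of 0 h. The GO, enzyme and qRT-PCR data were not analysed here.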

Additional observations from a re-analysis of the deposited data

How the results depend on the processing

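The D6 counts of members at least 2-fold lower than at 0 h stayed within 1.5 times of the values given under other pseudocounts, size factors, no minimum and left-out replicate numbers, with 126 to 129 members lower at every later hour when a replicate number was left out. A threshold of -2 left 96. Of the 150 members, 130 to 148 were chosen again when X2 replicates or single libraries were left out (145 without the 4 h column whose name is repeated), 126 with a pseudocount of 1, 145 with a pseudocount of 0.01 and 137 with size factors. Between later D6 hours, a pseudocount of 1 changed the number that fell from 4 h to 12 h to 7 and the number that rose from 4 h to 24 h to 8, and left-out replicates gave 8 to 16 for the latter. The number that fell from 12 h to 24 h was 2 without the minimum and 2 with the replicate block, and 0 to 3 with a replicate left out. With the block, 4 members rose and 11 fell from 4 h to 12 h, and 10 rose and 7 fell from 4 h to 24 h. Of all genes tested with the block, 3032 of 19710 rose and 2586 fell from 4 h to 12 h. From 4 h to 24 h, 3934 of 20143 rose and 3264 fell. Same-numbered libraries of 4 h and 24 h did not deviate together throughout, and no source used here states a pairing. No direction of a named gene was reversed under the alternatives run. The single 0 h library of D6 and the 2 of X2 at 24 h limit what the falls show.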
